A study of Rattus norvegicus with 18 samples.

Results

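The genes that build cholesterol and fatty acids were followed in primary rat Schwann cells cultured with or without vitamin C. The set was chosen by name as 39 listed genes, 21 of a sterol branch and 18 of a fatty acid branch, and was matched by gene symbol in the deposited peak list. Of these, 34 were found, 17 in each branch, among 32883 RNA identifiers. They hold 199 of the 215951 peaks. Idi1, Tm7sf2, Nsdhl and Ebp of the sterol branch and Elovl6 of the fatty acid branch carry no symbol in the peak list and were not found by this rule.

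Schwann cells are the glia of peripheral nerve. Cholesterol and lipids that carry long-chain fatty acids are the main lipids of the myelin that they wrap around axons. Schwann cells make much of the cholesterol and fatty acids themselves. The sterol branch runs from acetyl-CoA through mevalonate, squalene and lanosterol to cholesterol, and its genes are switched on mainly by the transcription factor SREBP2, product of Srebf2. The fatty acid branch turns citrate into acetyl-CoA, malonyl-CoA and palmitate, then lengthens and desaturates it, and many of its genes answer to SREBP1, product of Srebf1.

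Both groups were primary Schwann cells of the rat taken at passage 3. The control group carries the treatment label control and the treated group the label VitC, and the dose and length of treatment are not given in the labels. RNA depleted of ribosomal RNA, DNA precipitated for 5-hydroxymethylcytosine (hMeDIP) and unprecipitated genomic input were sequenced as 18 libraries, 3 per group and assay. 5-hydroxymethylcytosine is the first product of the TET enzymes, which oxidise methylated cytosine and whose activity vitamin C is known to support. Whether the libraries of 1 group stem from different cultures or animals is not stated in the labels. The p-values therefore cover the spread among these libraries only, and that spread may be technical.

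RNA libraries held 23381814 to 33173282 reads in genes, hMeDIP libraries 24020306 to 39899445 reads in peaks and input libraries 7201638 to 9521037. Counts of hMeDIP replicates 1 and 3 differed by no more than sampling noise within both groups, so they were summed and counted as 1 sample, which leaves 2 against 2 samples in the hMeDIP fit. Where hMeDIP libraries are compared one by one below, the 3 values of a group therefore stand for 2 samples. In RNA, vitamin C replicate 1 stood apart from vitamin C replicates 2 and 3, with a chi-square per degree of freedom of 29.3 and 41.0 against 5.54 between those 2. It also had the lowest share of counted RNA reads in genes, 46.1% against 56.1% and 57.7% in replicates 2 and 3. Its share not uniquely aligned was the highest, 44.9% against 34.4% and 32.7%. The part of this difference in the results was not tested. Reads in peaks were 30.8% to 35.7% of counted hMeDIP reads in controls and 40.8% to 43.9% with vitamin C. All 7 Schwann cell markers were well above the detection filter, with a summed level of 10824 to 11020 CPM (reads scaled to library size) in controls and 9963 to 10821 CPM with vitamin C. Of 6 markers of adipocytes, which also make fat, 0 passed the filter, with at most 8 reads of a marker in any library.

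Promoters are shown for the 3 sterol genes of largest RNA rise and for the fatty acid gene of largest fall, since these are the members whose RNA moved furthest in each branch apart from Stard4 and the low-count Acacb. Each runs 5′ to 3′ on the strand of its gene, from 250 bases before to 50 bases after the RefSeq transcript start, in the rat build GRCr8. Capitals mark 2 short motifs on either strand, CCAAT, which NF-Y binds, and GGGCGG, which Sp1 binds. Cyp51 (ENSRNOG00000007234) lies on the plus strand at chr4:30991443-30991742, Insig1 (ENSRNOG00000006859) on the minus strand at chr4:8057720-8058019, Hmgcs1 (ENSRNOG00000016552) on the plus strand at chr2:53382054-53382353 and Scd2 (ENSRNOG00000046005) on the plus strand at chr1:253118127-253118426.
Cyp51: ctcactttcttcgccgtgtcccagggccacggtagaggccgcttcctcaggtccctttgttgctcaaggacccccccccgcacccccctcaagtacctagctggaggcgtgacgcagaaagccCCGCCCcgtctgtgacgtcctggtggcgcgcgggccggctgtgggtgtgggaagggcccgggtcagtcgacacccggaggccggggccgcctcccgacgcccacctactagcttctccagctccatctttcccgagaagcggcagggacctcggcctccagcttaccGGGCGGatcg
Insig1: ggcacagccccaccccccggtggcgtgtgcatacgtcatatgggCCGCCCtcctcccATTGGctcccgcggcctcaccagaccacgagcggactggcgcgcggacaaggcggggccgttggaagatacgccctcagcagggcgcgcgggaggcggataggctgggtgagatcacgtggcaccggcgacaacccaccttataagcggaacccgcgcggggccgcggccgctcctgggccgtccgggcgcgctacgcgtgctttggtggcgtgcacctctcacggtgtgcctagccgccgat
Hmgcs1: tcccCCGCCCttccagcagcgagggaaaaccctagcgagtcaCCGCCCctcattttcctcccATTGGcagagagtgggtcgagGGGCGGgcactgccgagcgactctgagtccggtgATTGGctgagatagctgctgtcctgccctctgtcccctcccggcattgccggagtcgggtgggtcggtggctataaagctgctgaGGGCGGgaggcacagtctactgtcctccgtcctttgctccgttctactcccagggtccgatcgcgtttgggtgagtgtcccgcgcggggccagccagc
Scd2: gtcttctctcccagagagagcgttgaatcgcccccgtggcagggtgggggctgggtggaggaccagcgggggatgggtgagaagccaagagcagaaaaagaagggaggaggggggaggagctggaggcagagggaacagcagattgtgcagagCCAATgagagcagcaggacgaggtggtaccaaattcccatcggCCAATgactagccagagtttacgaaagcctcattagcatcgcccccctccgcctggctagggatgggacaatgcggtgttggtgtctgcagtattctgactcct
RefSeq promoter sequences of GRCr8 were matched for 28 of the 34 found members, with 29 entries. GGGCGG stood in 13 of 13 sterol entries and in 9 of 16 fatty acid entries, against 33.1% of all 33469 promoter entries of this length. CCAAT stood in 10 of 13 sterol entries and 11 of 16 fatty acid entries, against 37.5% of all entries. The letters TCACNCCAC, a core form of the sterol regulatory element, stood in 0 entries of either branch and in 1.12% of all entries. No match of one motif overlapped a match of another. These are letter matches, and the genome build of the peak list is not given, so peaks were not placed on these promoters.

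With vitamin C, more sterol genes rose than fell in RNA, and more fatty acid genes fell than rose. Of 17 sterol genes tested, 8 rose, 3 fell and 6 did not pass an adjusted p of 0.05 in edgeR's quasi-likelihood test. Over all 12925 genes tested, 40.1% passed, 19.1% higher and 21% lower, so that rises were more frequent in the sterol branch than over all genes. The median log2 change of the sterol genes was 0.13, against -0.01 over all genes. Of 15 fatty acid genes tested, 1 rose (6.67%), 5 fell (33.3%) and 9 did not pass, beside the 19.1% higher and 21% lower over all genes. Their median of -0.05 was near the -0.01 of all genes, so these counts show no fall of the branch as a whole. The difference between the branches was described by these counts and was not tested. In bulk RNA, fewer cells of a type and less RNA per cell cannot be told apart. With scaling by library size alone, the median of all genes moved to -0.07, with 16.3% of them higher and 25.8% lower. The sterol branch then had 6 genes higher and 3 lower, and the fatty acid branch 1 higher and 5 lower. Without control replicate 2, 5 sterol genes were called higher and 3 lower, beside 1710 higher and 1784 lower of all genes.

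**Figure D1:**
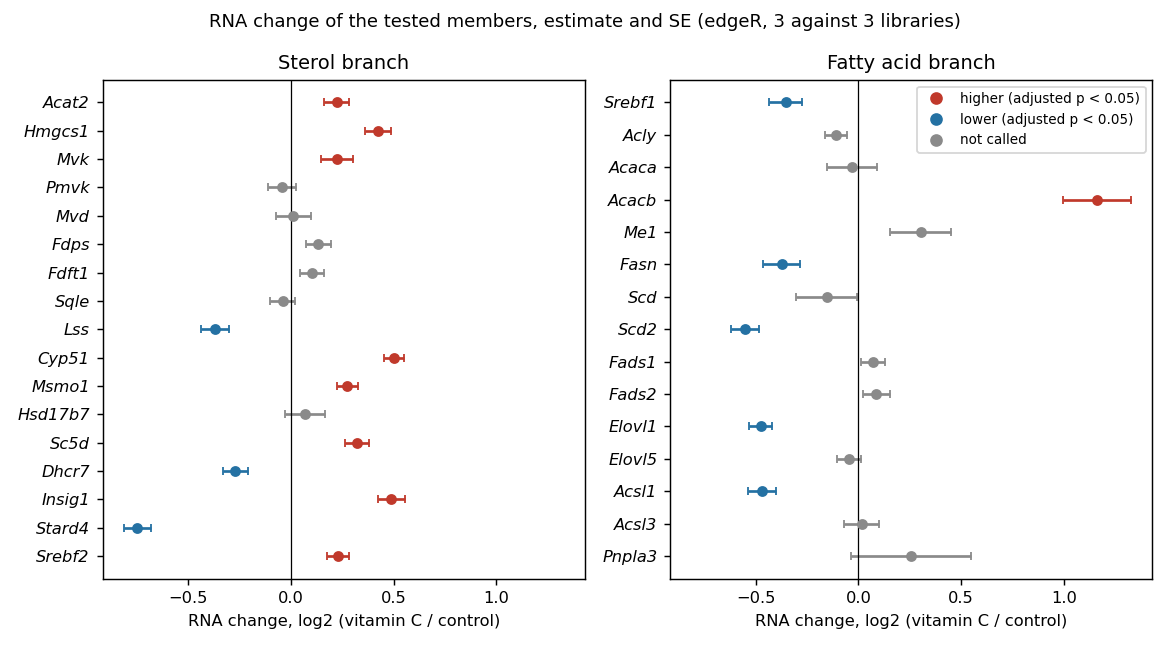
RNA change of the 32 tested members, as log2 of vitamin C over control on the horizontal axis; points are edgeR estimates and bars their SE, 3 against 3 libraries. Red points rose, blue points fell and grey points did not pass an adjusted p of 0.05; most coloured points of the sterol panel lie right of 0, and all but Acacb of the fatty acid panel lie left.

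Among the early enzymes that make mevalonate and isoprenoid units, 3 of 6 rose and 0 fell. Hmgcs1, the cytosolic synthase that makes HMG-CoA, stood at 323, 291 and 297 CPM in controls and at 387, 420 and 414 CPM with vitamin C. Each treated library was above each control, and the log2 change was 0.42 ± 0.06 (SE; adjusted p = 0.000893 in edgeR). Acat2, which joins acetyl-CoA units to begin the path, changed by 0.22 ± 0.06 (SE; adjusted p = 0.0182 in edgeR). Mvk, mevalonate kinase, changed by 0.22 ± 0.08 (SE; adjusted p = 0.0479 in edgeR), the weakest call of the set. Acat2 lost its call without control replicate 2 (adjusted p = 0.0794), control replicate 3 (0.0516), vitamin C replicate 2 (0.0515) or vitamin C replicate 3 (0.0527). Mvk lost it without any one of the controls or of vitamin C replicates 2 and 3, at adjusted p of 0.0632 to 0.149. With scaling by library size alone the adjusted p was 0.0796 for Acat2 and 0.154 for Mvk, and DESeq2 gave 0.0735 for Mvk. The kinase Pmvk (log2 -0.04) and the decarboxylase Mvd (0.01) overlapped between groups and did not pass. Fdps, which makes farnesyl diphosphate, had a log2 change of 0.13 ± 0.06 (SE; adjusted p = 0.108 in edgeR). It passed as higher without vitamin C replicate 1 (adjusted p = 0.0209).

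Of the 3 middle steps, 0 rose and 1 fell. Fdft1, the squalene synthase, had a log2 change of 0.10 and Sqle, the squalene epoxidase, one of -0.04, and neither passed. Lss, the cyclase that makes lanosterol, stood at 113, 103 and 118 CPM in controls and at 85.5, 82.3 and 90.5 CPM with vitamin C. The groups did not overlap, and Lss fell by 0.37 ± 0.07 on the log2 scale (SE; adjusted p = 0.00329 in edgeR).

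The enzymes after lanosterol contained the strongest rise of an enzyme in the branch. Cyp51, the lanosterol demethylase, stood at 253, 244 and 245 CPM in controls and at 352, 351 and 346 CPM with vitamin C. Its libraries hardly differed within a group, and the rise was 1.41-fold, a log2 change of 0.50 ± 0.05 (SE; adjusted p = 9.36e-05 in edgeR). Msmo1, the next demethylating enzyme, had 382, 368 and 360 CPM in controls and 439, 449 and 454 CPM with vitamin C, a log2 change of 0.27 ± 0.05 (SE; adjusted p = 0.00321 in edgeR). Sc5d, a desaturase of the sterol ring, had 78.3, 72.2 and 74.2 CPM in controls and 97.6, 93.0 and 90.6 CPM with vitamin C, a log2 change of 0.32 ± 0.06 (SE; adjusted p = 0.00290 in edgeR). Neither gene overlapped between groups. Dhcr7, which makes cholesterol in the last step of one route, went the other way, from 114, 114 and 125 CPM to 95.7, 96.1 and 101 CPM. It fell by 0.27 ± 0.06 on the log2 scale (SE; adjusted p = 0.00735 in edgeR), with all treated libraries below all controls. Hsd17b7, a ketoreductase of the same stretch, had a log2 change of 0.07 and did not pass.

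The genes that control or carry sterols were all called, in both directions. Srebf2, the regulator itself, stood at 258, 256 and 275 CPM in controls and at 311, 314 and 301 CPM with vitamin C. All treated libraries were higher, with a log2 change of 0.23 ± 0.05 (SE; adjusted p = 0.00917 in edgeR), a call that was lost without control replicate 2 (adjusted p = 0.0688). Insig1, which retains the SREBP escort in the endoplasmic reticulum and is itself an SREBP target, stood at 187, 160 and 167 CPM in controls and at 243, 243 and 237 CPM with vitamin C. The groups did not overlap, with a log2 change of 0.49 ± 0.07 (SE; adjusted p = 0.000632 in edgeR). Stard4, a cytosolic carrier of cholesterol and also an SREBP target, stood at 90.6, 84.4 and 82.8 CPM in controls and at 51.8, 53.2 and 48.8 CPM with vitamin C. It was far below every control in every treated library, and fell by 0.75 ± 0.06 on the log2 scale (SE; adjusted p = 4.45e-05 in edgeR), a fold of 0.596.

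**Figure D2:**
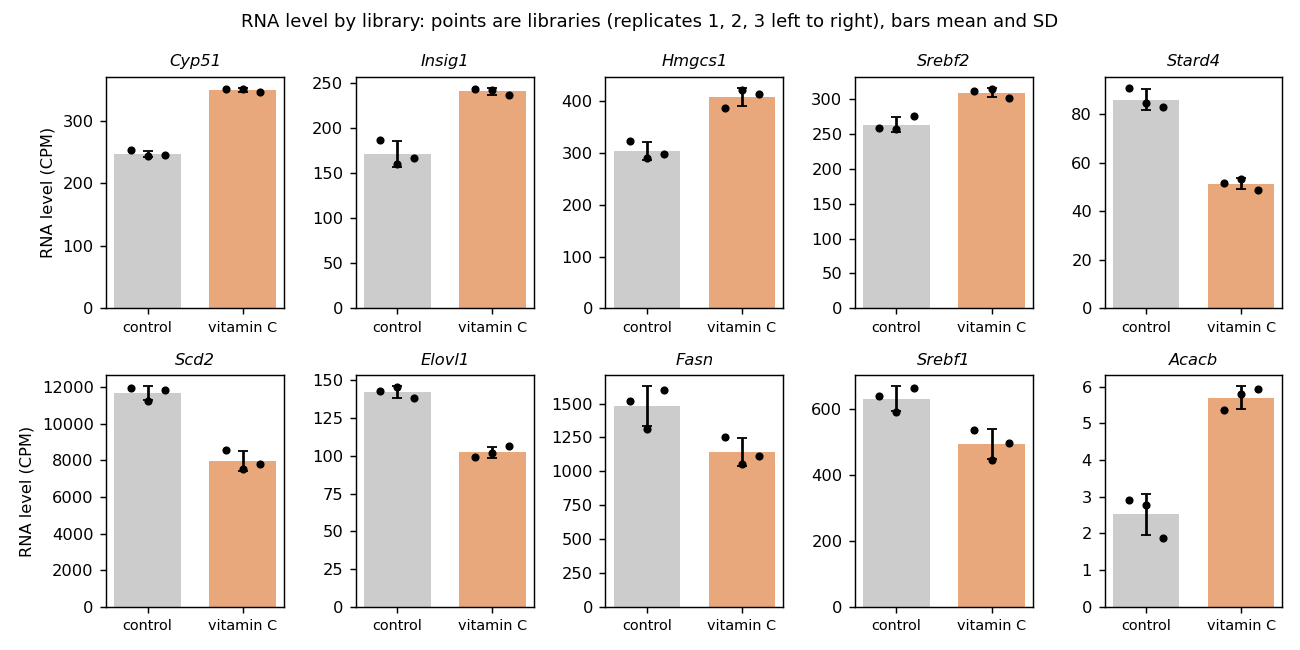
RNA level in CPM of 10 members, with points for the 3 libraries of each group in the order of their replicate numbers, bars for the mean and error bars for the SD. No point of one group overlaps the other group in any panel; levels are not corrected for gene length, so panels are not compared with each other.

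In the fatty acid branch the regulator and the synthase both fell. Srebf1 stood at 640, 590 and 662 CPM in controls and at 537, 446 and 498 CPM with vitamin C. The groups did not overlap, and Srebf1 fell by 0.35 ± 0.08 on the log2 scale (SE; adjusted p = 0.00761 in edgeR). Fasn, the enzyme that builds palmitate, stood at 1520, 1316 and 1601 CPM in controls and at 1254, 1057 and 1115 CPM with vitamin C. Its lowest control lay just above its highest treated library, and it fell by 0.37 ± 0.09 on the log2 scale (SE; adjusted p = 0.0113 in edgeR). The Fasn call was lost without control replicate 3 (adjusted p = 0.0583). Thrsp, a small protein that promotes lipid synthesis, had 0 reads in all 6 libraries, which allows up to 0.0904 to 0.128 CPM by library (3 reads, counting error only), and was not tested.

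The enzymes that supply acetyl-CoA, malonyl-CoA and NADPH did not move as a group. Acly, which splits citrate, had a log2 change of -0.11 (adjusted p = 0.136 in edgeR). Acaca, the cytosolic acetyl-CoA carboxylase, had one of -0.03 (adjusted p = 0.850), and Me1, the malic enzyme, one of 0.30 (adjusted p = 0.141). Acaca stood at 213, 189 and 221 CPM in controls and at 246, 179 and 183 CPM with vitamin C, so that replicate 1 was the highest of all libraries and the other treated libraries the lowest. Without vitamin C replicate 1, Acaca passed as lower, at -0.19 ± 0.06 (SE; adjusted p = 0.0277 in edgeR). Acacb, the carboxylase of the mitochondrial surface whose malonyl-CoA holds back fatty acid oxidation, was the one gene of the branch that rose. It stood at 2.92, 2.78 and 1.88 CPM in controls and at 5.36, 5.81 and 5.94 CPM with vitamin C. The groups were well apart at a low level, and the rise was 2.23-fold, a log2 change of 1.16 ± 0.16 (SE; adjusted p = 0.000743 in edgeR).

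Among the desaturases, Scd2 alone passed. Scd2, a stearoyl-CoA desaturase that makes monounsaturated fatty acids, stood at 11945, 11279 and 11840 CPM in controls and at 8568, 7562 and 7783 CPM with vitamin C. Every treated library was well below every control, with a fall of 0.55 ± 0.07 on the log2 scale (SE; adjusted p = 0.000345 in edgeR), a fold of 0.682. Its paralog Scd stood at 799, 645 and 731 CPM in controls and at 815, 529 and 609 CPM with vitamin C. These overlapped, with a log2 change of -0.16 ± 0.15 (SE; adjusted p = 0.432 in edgeR), and without vitamin C replicate 1 Scd passed as lower, at -0.35 ± 0.08 (SE; adjusted p = 0.00445 in edgeR). Reads not uniquely aligned, 32.7% to 44.9% of counted RNA reads, were held in an entry outside the genes. How many of them came from these 2 similar genes is not given. Fads1 and Fads2, which desaturate polyunsaturated fatty acids, had log2 changes of 0.07 and 0.09, with overlapping groups.

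Of the elongases, Elovl1, which makes the very long chains of sphingolipids, stood at 143, 146 and 138 CPM in controls and at 98.9, 102 and 106 CPM with vitamin C. The groups were well apart, with a fall of 0.47 ± 0.06 on the log2 scale (SE; adjusted p = 0.000266 in edgeR). Elovl5, which lengthens polyunsaturated chains, had a log2 change of -0.05 and did not pass, and Elovl7 had 1 read in vitamin C replicate 1 and 0 in the others and was not tested. Acsl1, which activates fatty acids to their CoA form, stood at 42.8, 38.5 and 39.7 CPM in controls and at 30.7, 27.9 and 28.8 CPM with vitamin C. It fell by 0.47 ± 0.07 on the log2 scale (SE; adjusted p = 0.000911 in edgeR) with no overlap, whereas the related Acsl3 had a log2 change of 0.02 and did not pass. Pnpla3, a lipid droplet protein, was under 1 CPM in every library and had a log2 change of 0.25 ± 0.29 (SE; adjusted p = 0.514 in edgeR).

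Further genes of both pathways came from lists drawn up beside the members. Of 25 tested genes, mainly for uptake, efflux, storage and sensing of sterols, 7 rose, 5 fell and 13 did not pass, with a median log2 change of 0.05. These counts are near the 19.1% higher and 21% lower over all genes tested, so they show nothing about the list as a whole. The 4 largest rises were those of Vldlr, a lipoprotein receptor (1.56 ± 0.08), the lipid carrier Apoe (0.53 ± 0.08), the sterol hydroxylase Cyp27a1 (0.42 ± 0.06) and Mbtps2, a protease that releases SREBP (0.36 ± 0.11), as log2 changes with SE. The 4 largest falls were those of the lysosomal cholesterol exporter Npc1 (-1.09 ± 0.06), its partner Npc2 (-0.51 ± 0.06), the esterifying enzyme Soat1 (-0.42 ± 0.06) and the lysosomal lipase Lipa (-0.37 ± 0.05). Npc1 had 96.8, 96.3 and 101 CPM in controls and 44.4, 46.8 and 46.6 CPM with vitamin C, so that every treated library was far below every control. Of 32 tested genes of fatty acid and glycerolipid synthesis, 2 rose, 12 fell and 18 did not pass, with a median of -0.15, beside 19.1% higher and 21% lower over all genes tested. The rises were those of the phosphatase Lpin2 (0.23 ± 0.06) and the acetyl-CoA synthetase Acss2 (0.24 ± 0.08). The 4 largest falls were those of the acyl-CoA synthetase Acsl6 (-0.97 ± 0.11), the mitochondrial citrate carrier Slc25a1 (-0.68 ± 0.05), the synthetase Acsl5 (-0.58 ± 0.08) and the elongation dehydratase Hacd3 (-0.49 ± 0.06).

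Some markers of other cells moved with the treatment as well. The summed level of mural cell markers went from 73.9 to 76.6 CPM in controls to 188 to 216 CPM with vitamin C, 3 of 3 tested markers rising, while the defining Rgs5, Acta2 and Cnn1 had at most 10 reads in any library. Both tested fibroblast markers fell, Pdgfra (-1.38 ± 0.24) and Pi16 (-0.78 ± 0.15), and the 1 tested endothelial marker, Tek, rose (1.15 ± 0.19), as log2 changes with SE. Counts were low, with 17 to 72 reads per library for Pdgfra, 40 to 87 for Pi16 and 30 to 105 for Tek. The fibroblast markers Dcn and Thy1 and the endothelial markers Kdr and Cdh5 had at most 3 reads in any library. The 1 tested macrophage marker, Cd68, did not pass (0.14 ± 0.19). Among Schwann cell markers, Cdh19 rose (0.67 ± 0.09), Erbb3 fell (-0.16 ± 0.05) and S100b fell from a mean of 1172 to 589 CPM (-0.99 ± 0.06), while the other 4 of 7 did not pass. The part of these markers in the changes of the lipid genes was not tested.

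In hMeDIP, reads summed over the peaks of each gene were higher with vitamin C for most members of both branches. Of 17 sterol genes, 11 were higher and 3 lower, with a median log2 change of 0.39, and of 17 fatty acid genes 10 were higher and 4 lower, with a median of 0.21. Over all 17003 genes with a peak, 73.9% were called, 34.8% higher and 39.1% lower, with a median of -0.01. These values use TMM scaling, which sets the bulk of peaks to no change. Scaled instead by all counted reads, the median of all genes moved to 0.43, and 15 sterol genes were higher and 1 lower, 14 fatty acid genes were higher and 2 lower, and 82.4% of all genes were called, 64.9% higher and 17.5% lower. The members' medians were then 0.85 and 0.66, shifted by about as much as that of all genes.

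Peak by peak the picture was the same for the sterol branch and more mixed for fatty acid genes. Of 71 sterol peaks, 46 were higher and 12 lower, with a median of 0.44, and of 128 fatty acid peaks 64 were higher and 27 lower, with a median of 0.27. Over all 215951 peaks 73.2% were called, 36.9% higher and 36.3% lower, with a median of 0.05, and over peaks with a gene symbol 72.9% were called, 44.2% higher and 28.7% lower, with a median of 0.17. Scaled by all counted reads, 58 sterol peaks were higher and 3 lower, 96 fatty acid peaks were higher and 21 lower. Of all peaks 83.8% were then called, 60.1% higher and 23.6% lower, with a median of 0.49. Of peaks with a gene symbol, 68.0% were higher and 16.5% lower, beside 81.7% and 4.23% of sterol peaks. Fatty acid peaks, at 75% and 16.4%, were nearer that share. Tested as a change over input, the sterol branch had 32 peaks higher and 6 lower and the fatty acid branch 39 higher and 23 lower. Of all peaks 49% were called in that test, 21% higher and 28% lower. DESeq2 called fewer peaks higher throughout, 33 sterol peaks, 36 fatty acid peaks and 43730 of all peaks. In the input libraries themselves, edgeR called 0 of 199 member peaks, as 0% of 215759 peaks were called, with 8 member peaks (4.02%) and 10477 of all peaks (4.86%) at an unadjusted p under 0.05, and no other tool was run on input.

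The deposited list is made of 2 parts, each sorted by position, and the direction of change went with the part. In the first part, with 67116 peaks, 25 of 39 member peaks were lower and 3 higher, against 58434 lower and 1956 higher of all its peaks. In the second part, 107 of 160 member peaks were higher and 14 lower, against 77642 higher and 20033 lower of 148835. All member peaks have a gene symbol. Of all peaks with a symbol, 83.0% were lower in the first part, against 64.1% of member peaks. In the second part 56.9% of them were higher and 11.5% lower, against 66.9% and 8.75% of member peaks. The sources used here do not say how the list was put together, and its part in the results was not tested. Promoter classes of the list held 49 member peaks, 30 higher (61.2%) and 5 lower (10.2%), against 42.7% and 30.2% of all promoter peaks with a symbol. Gene bodies held 150, 80 higher (53.3%) and 34 lower (22.7%), against 44.5% and 28.4% of all gene body peaks with a symbol.

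**Figure D3:**
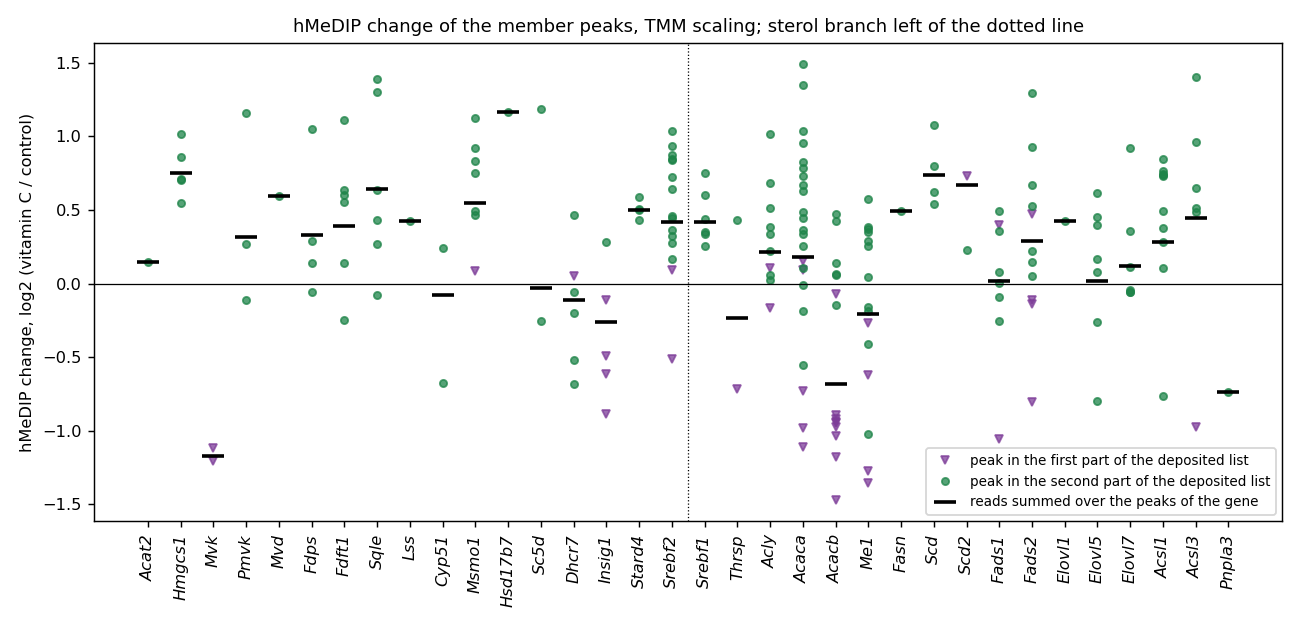
hMeDIP change of each of the 199 member peaks, as log2 of vitamin C over control with TMM scaling; genes stand along the horizontal axis, sterol branch left of the dotted line. Triangles are peaks of the first part of the deposited list, circles those of the second part and black bars the reads summed over a gene's peaks; most triangles lie below 0 and most circles above.

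Among the early sterol genes, Hmgcs1 had all 5 of its peaks higher, with log2 changes from 0.55 to 1.02. Its summed hMeDIP level was 11.8, 13.0 and 11.6 CPM in controls and 19.6, 20.3 and 20.9 CPM with vitamin C, a log2 change of 0.75 ± 0.06 (SE; adjusted p = 1.45e-13 in edgeR). Treated libraries were all higher, in RNA and hMeDIP alike. Mvk had the largest fall per gene of the sterol branch (-1.17), with both of its peaks lower and both in the first part of the list. The Mvk peak at chr12:47911148-47911522 (-1.12) was not called as a change over input, at -0.54 (adjusted p = 0.134 in edgeR). Input at that peak had a log2 change of -0.58, which did not pass (adjusted p = 0.987 in edgeR). The Mvk gene body peak at chr12:47914833-47915296 had 3.27, 3.81 and 3.12 CPM in controls and 1.78, 1.32 and 1.31 CPM with vitamin C, a log2 change of -1.21 ± 0.15 (SE; adjusted p = 3.63e-09 in edgeR). A Fdps gene body peak at chr2:188405684-188406969 moved from 3.53, 3.25 and 2.94 CPM to 6.56, 6.87 and 6.38 CPM, a log2 change of 1.05 ± 0.11 (SE; adjusted p = 1.35e-11 in edgeR). Groups did not overlap in hMeDIP at these peaks. Summed over each gene, Pmvk (0.32), Mvd (0.60) and Fdps (0.33) were higher, and Acat2 (0.15) did not pass.

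Among the squalene and lanosterol genes, Fdft1 (0.39), Sqle (0.64) and Lss (0.43) were all higher per gene, although none of them rose in RNA. The Sqle peak of smallest p, in the class within 3 kb of the start at chr7:99611031-99612480, had 3.87, 3.46 and 4.37 CPM in controls and 10.1, 9.60 and 9.30 CPM with vitamin C. Treated libraries were more than double every control, with a log2 change of 1.30 ± 0.09 (SE; adjusted p = 1.02e-15 in edgeR). Input at this peak was 6.63 to 9.04 CPM in all 6 libraries and overlapped between groups.

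Genes after lanosterol differed from one another. The only Hsd17b7 peak, in the gene body at chr13:88303746-88304459, had 2.74, 2.77 and 2.32 CPM in controls and 5.73, 5.82 and 5.77 CPM with vitamin C, a log2 change of 1.17 ± 0.12 (SE; adjusted p = 8.65e-12 in edgeR). For Msmo1, 6 of 7 peaks were higher and 0 lower. Its peak within 1 kb of the start, at chr16:26858380-26859044, had 1.99, 1.95 and 1.80 CPM in controls and 3.09, 3.43 and 3.53 CPM with vitamin C, a log2 change of 0.83 ± 0.14 (SE; adjusted p = 1.69e-06 in edgeR). Groups did not overlap, but this call was lost as a change over input, at 0.52 (adjusted p = 0.0892). A second Msmo1 peak, within 3 kb of the start at chr16:26861337-26862400, had 3.42, 4.16 and 3.36 CPM in controls and 6.31, 6.02 and 5.84 CPM with vitamin C, a log2 change of 0.75 ± 0.11 (SE; adjusted p = 5.76e-08 in edgeR). Sc5d had 1 of 2 peaks higher and 1 lower, the lower one at -0.26 and not called when scaled by all counted reads. The higher Sc5d peak was thin, within 3 kb of the start at chr8:46535147-46535549, with 19 to 80 reads per library. It had 0.714, 0.909 and 0.642 CPM in controls and 1.56, 1.54 and 1.95 CPM with vitamin C, a log2 change of 1.19 ± 0.21 (SE; adjusted p = 3.41e-06 in edgeR). The second Msmo1 peak and this higher Sc5d peak kept their groups apart.

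Cyp51, whose RNA rose most among the sterol genes, had 1 peak higher and 1 lower, both in the gene body. Its summed level did not pass, at -0.08 with TMM scaling and 0.37 scaled by all counted reads. Sc5d likewise gave -0.03, not called, and 0.39, called higher, under these scalings. Dhcr7 had 3 of 6 peaks lower and 1 higher. The lower Dhcr7 gene body peak at chr1:217028403-217029152 had 9.10, 8.31 and 8.01 CPM in controls and 5.51, 5.20 and 4.97 CPM with vitamin C, a log2 change of -0.68 ± 0.09 (SE; adjusted p = 5.18e-09 in edgeR), and it was not called when scaled by all counted reads (-0.24, adjusted p = 0.0835). The higher one, within 3 kb of the start at chr1:217021049-217022445, had 5.08, 4.68 and 4.92 CPM in controls and 7.23, 6.82 and 6.11 CPM with vitamin C, a log2 change of 0.47 ± 0.10 (SE; adjusted p = 3.59e-05 in edgeR). So the Dhcr7 peak near the start and one inside the gene moved in opposite directions under TMM scaling, with groups apart at both. Per gene, Dhcr7 was lower at -0.11 and higher at 0.35 when scaled by all counted reads.

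Srebf2 had the most peaks of the sterol branch, 13 of 15 higher and 1 lower. Its gene body peak at chr7:123385637-123390293 had 15.0, 15.0 and 14.9 CPM in controls and 26.4, 28.4 and 26.1 CPM with vitamin C, a log2 change of 0.87 ± 0.06 (SE; adjusted p = 1.34e-16 in edgeR). The controls were nearly equal and far below the treated libraries. A peak just before the start, at chr7:123379668-123380360, had 1.17, 1.82 and 1.41 CPM in controls and 2.53, 2.74 and 2.46 CPM with vitamin C, a log2 change of 0.84 ± 0.17 (SE; adjusted p = 2.31e-05 in edgeR). The lower peak, at chr7:123404017-123405706 in the first part of the list, had 15.5, 14.0 and 15.7 CPM in controls and 10.7, 10.8 and 9.86 CPM with vitamin C. Its log2 change was -0.51 ± 0.07 (SE; adjusted p = 1.21e-08 in edgeR), and scaled by all counted reads it was -0.05 and not called (adjusted p = 0.748).

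Insig1 had 3 of 5 peaks lower, all in the first part of the list, and 1 higher before the start. The gene body peak at chr4:346040-346563 had 4.17, 3.64 and 4.50 CPM in controls and 2.03, 2.29 and 2.29 CPM with vitamin C, a log2 change of -0.88 ± 0.13 (SE; adjusted p = 1.20e-07 in edgeR). Groups did not overlap there. Per gene Insig1 was lower, at -0.26, but scaled by all counted reads it was 0.19 and not called. All 4 peaks of Stard4 were higher, from 0.43 to 0.59, and its summed level went from 19.9, 19.4 and 20.9 CPM to 28.5, 27.9 and 28.1 CPM, a log2 change of 0.50 ± 0.05 (SE; adjusted p = 7.20e-11 in edgeR). Stard4 had higher hMeDIP and lower RNA in every treated library than in any control.

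**Figure D4:**
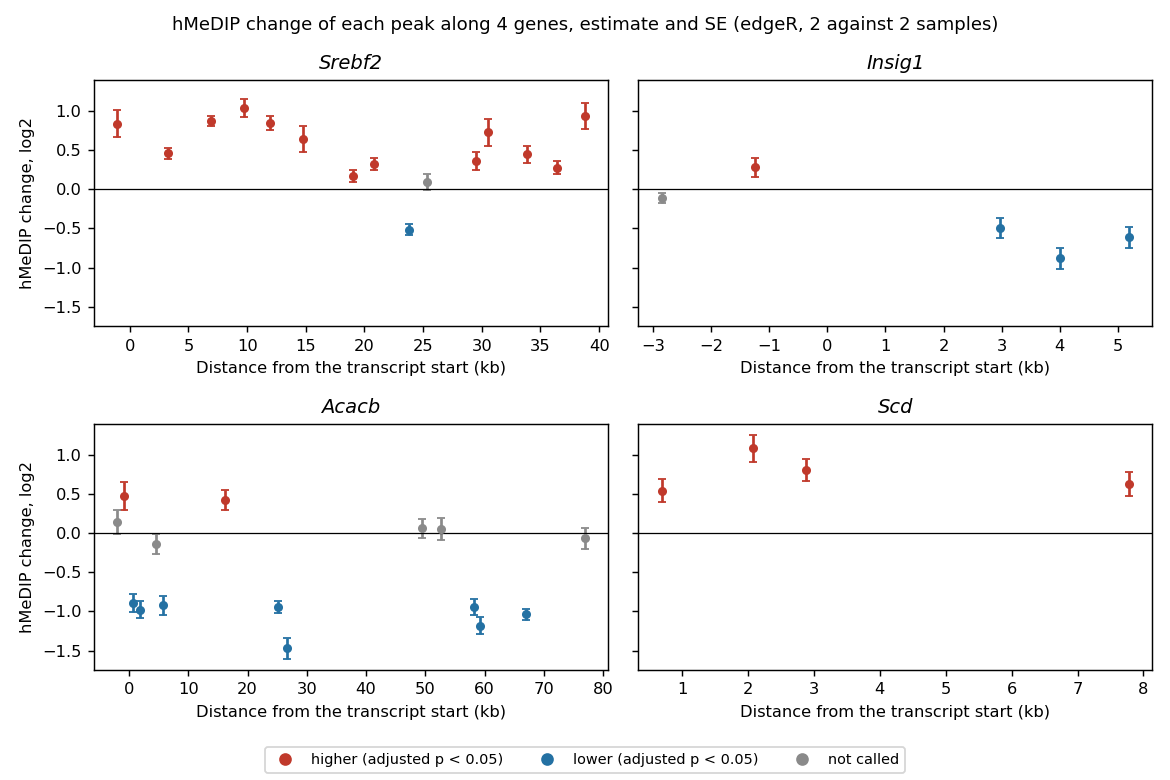
hMeDIP change of each peak along Srebf2, Insig1, Acacb and Scd, against the distance of the peak from the transcript start in kb as the deposited list gives it; points are edgeR log2 estimates with TMM scaling and bars their SE, 2 against 2 samples. Peaks of Srebf2 and Scd lie above 0 apart from 1 lower Srebf2 peak, and the lower peaks of Insig1 and Acacb lie past the start.

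In the fatty acid branch, all 6 peaks of Srebf1 were higher. The peak of Srebf1 within 3 kb of a start, at chr10:46583141-46586884, had 13.5, 13.9 and 15.0 CPM in controls and 18.5, 19.8 and 18.8 CPM with vitamin C, a log2 change of 0.44 ± 0.06 (SE; adjusted p = 3.23e-08 in edgeR). Groups did not overlap, and Srebf1 RNA fell. Fasn had a single peak, higher at 0.49 ± 0.08 (SE). Thrsp, which had no RNA reads, had 1 higher peak and 1 lower one. The lower Thrsp peak, before the start at chr1:162388205-162388794, had 7.48, 8.92 and 7.95 CPM in controls and 4.70, 5.02 and 4.92 CPM with vitamin C, a log2 change of -0.72 ± 0.09 (SE; adjusted p = 4.35e-09 in edgeR). Per gene Thrsp was lower at -0.23, and 0.20 and not called when scaled by all counted reads.

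Acacb was the member with the most lower peaks, 8 of 15, all in the first part of the list, and 2 of its peaks were higher. Its summed level was 86.7, 94.9 and 82.5 CPM in controls and 54.7, 53.4 and 55.7 CPM with vitamin C. All treated libraries were far lower, with a log2 change of -0.68 ± 0.04 (SE; adjusted p = 8.69e-19 in edgeR) and of -0.25 scaled by all counted reads, lower in both. The Acacb peak within 1 kb of the start, at chr12:48237913-48238544, had 5.87, 6.45 and 5.60 CPM in controls and 3.14, 3.38 and 2.99 CPM with vitamin C, a log2 change of -0.89 ± 0.11 (SE; adjusted p = 1.94e-09 in edgeR). A neighbour at chr12:48236753-48237321 went from 6.32, 7.06 and 6.09 CPM to 3.42, 3.06 and 3.33 CPM, a log2 change of -0.98 ± 0.11 (SE). Input at these 2 peaks overlapped between groups. In the Acacb gene body, the peak at chr12:48191968-48192468 fell furthest of the set, from 4.89, 5.41 and 4.65 CPM to 2.17, 1.62 and 1.61 CPM, a log2 change of -1.47 ± 0.13 (SE; adjusted p = 4.91e-13 in edgeR). The peak at chr12:48151347-48152483 had 17.8, 18.3 and 15.1 CPM in controls and 9.04, 7.61 and 8.16 CPM with vitamin C. The one at chr12:48193213-48194481 had 14.2, 15.7 and 13.3 CPM in controls and 7.01, 7.31 and 7.81 CPM with vitamin C. All 3 gene body peaks had every treated library below every control, which their choice by smallest p favours. Acacb and Mvk, the members with the largest falls per gene besides Pnpla3, stand on the same chromosome in the peak list, and Acacb RNA rose.

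Acaca, the other carboxylase, had 13 of 23 peaks higher and 4 lower, from -1.11 to 1.49. The Acaca gene body peak at chr10:71540230-71541329 had 4.29, 3.81 and 3.88 CPM in controls and 7.15, 6.77 and 6.55 CPM with vitamin C, a log2 change of 0.78 ± 0.10 (SE; adjusted p = 4.44e-09 in edgeR). Me1 had 5 of 15 peaks higher and 6 lower, and was lower per gene at -0.21 but higher at 0.25 when scaled by all counted reads. A Me1 gene body peak at chr8:94265574-94266366 had 9.78, 10.5 and 8.78 CPM in controls and 5.15, 4.70 and 4.33 CPM with vitamin C, a log2 change of -1.02 ± 0.09 (SE; adjusted p = 1.90e-13 in edgeR). Acly had 4 of 10 peaks higher and 0 lower.

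Both peaks of Scd2 were higher. The larger one, a broad gene body peak of 11283 bases at chr1:264063744-264075027, had 63.3, 58.9 and 61.7 CPM in controls and 103, 101 and 97.3 CPM with vitamin C. Treated libraries stood far above all controls, with a log2 change of 0.73 ± 0.05 (SE; adjusted p = 1.13e-17 in edgeR), the smallest p of all member peaks. Input over this peak was 53.7 to 57.4 CPM in all 6 libraries. It was 1 of the 3 member peaks of the first part of the list that were higher. All 4 peaks of Scd were higher, from 0.54 to 1.08. Fads2 had 6 of 11 peaks higher and 1 lower. Its gene body peak at chr1:226142979-226148931 had 21.6, 21.0 and 20.6 CPM in controls and 35.8, 32.1 and 32.7 CPM with vitamin C, a log2 change of 0.67 ± 0.06 (SE; adjusted p = 4.22e-14 in edgeR). The Fads2 peak within 3 kb of the start, at chr1:226150324-226151200, had 2.14, 2.04 and 2.08 CPM in controls and 4.84, 5.10 and 5.26 CPM with vitamin C, a log2 change of 1.29 ± 0.13 (SE; adjusted p = 5.03e-12 in edgeR). Treated libraries were more than double the controls there, while Fads2 RNA did not pass. Fads1 had 3 of 8 peaks higher and 2 lower, and did not pass per gene (0.02) except when scaled by all counted reads, where it was higher (0.48).

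The elongases and synthetases were higher or did not pass. Elovl1 had a single peak, higher at 0.43 ± 0.08 (SE). Elovl5 had 3 of 7 peaks higher and 2 lower. The lower Elovl5 peak before the start, at chr8:85257245-85258364, had 6.96, 7.88 and 7.77 CPM in controls and 4.76, 4.45 and 3.75 CPM with vitamin C, a log2 change of -0.80 ± 0.10 (SE; adjusted p = 7.86e-10 in edgeR). All treated libraries were below all controls at that peak. Elovl7, with 1 RNA read in all, had 1 of 6 peaks higher and 0 lower. Acsl1 had 7 of 10 peaks higher and 1 lower, and Acsl3 5 of 6 higher and 1 lower. The only Pnpla3 peak was lower, at -0.73 ± 0.13 (SE).

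Set side by side, 14 members were called in both RNA and summed hMeDIP. In the fatty acid branch, 6 were called in both and all 6 moved in opposite directions. Scd2, Elovl1, Fasn, Srebf1 and Acsl1 were lower in RNA and higher in hMeDIP, and Acacb was the reverse. In the sterol branch, 8 were called in both, of which 4 moved the same way (Hmgcs1, Msmo1 and Srebf2 higher in both, Dhcr7 lower in both) and 4 moved in opposite ways (Lss and Stard4 lower in RNA, Mvk and Insig1 higher in RNA). Over all 3170 genes called in both, 44.2% moved in opposite directions. Scaled by all counted reads, the 6 fatty acid genes kept these directions, 10 sterol genes were called in both and 4 of them were opposite. These were not the same 4, since Dhcr7 became opposite (RNA lower, hMeDIP higher) and Insig1 was no longer called in hMeDIP. The share over all genes was then 44.4%. That share differs by direction. Of all genes lower in RNA and called in both, 828 were higher and 640 lower in hMeDIP with TMM scaling. Scaled by all counted reads, these were 1504 higher and 159 lower, so lower RNA with higher hMeDIP was common and not particular to the branch. Both measures come from separate libraries, and no test of this pattern was made.

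**Figure D5:**
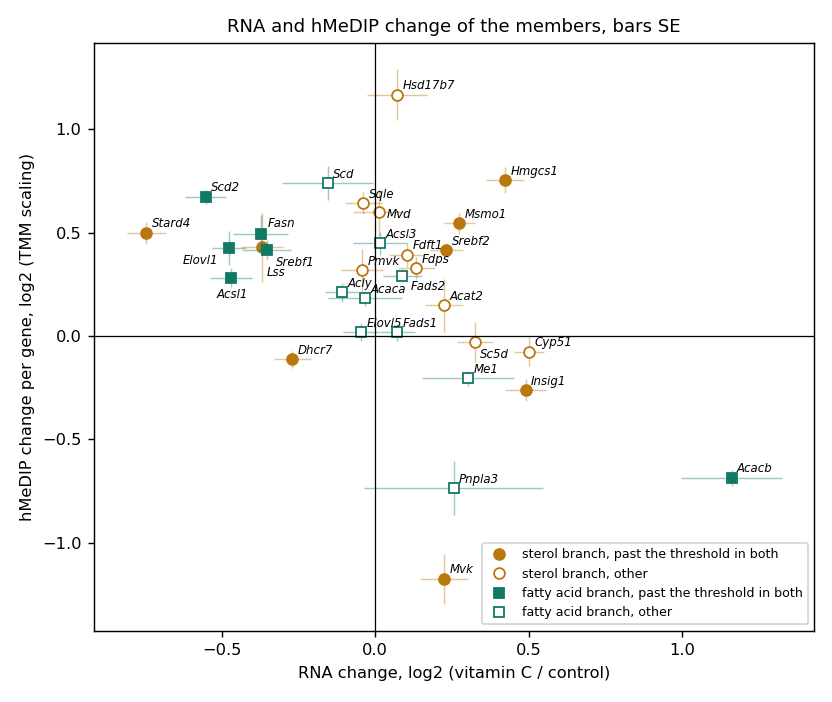
RNA change on the horizontal axis against the change of hMeDIP reads summed per gene on the vertical axis, both as log2 of vitamin C over control with SE bars, for the 32 members tested in both. Filled symbols passed an adjusted p of 0.05 in both; the filled squares of the fatty acid branch lie in the upper left or, for Acacb, the lower right.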

How the data were processed

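The authors deposited whole-number read counts per gene for RNA and per peak for hMeDIP and input, with a peak list giving position, gene symbol and class. Tools listed in the submitters' processing notes are STAR, BWA, HTSeq, Trim Galore and CASAVA 1.4, with no step assigned to them. The sources used here do not give the genome build, annotation, peak caller or strand setting, so reads of overlapping or antisense genes cannot be told apart. Entries naming no gene held 42.3% to 53.9% of counted RNA reads and were left out. Among these, the entry for reads not uniquely aligned held 32.7% to 44.9% of counted RNA reads.

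Groups came from each sample's own labels. Counts were tested in edgeR 4.0.16 (R 4.3.3) with the quasi-likelihood test on treatment alone, using TMM factors, filterByExpr and Benjamini-Hochberg adjustment over the whole table at 0.05. Each assay had its own fit, and a further fit tested the change over input. Levels are TMM-scaled CPM. All 34 found members had hMeDIP values, and 32 passed the RNA filter. The fitting code was tested on simulated data in which few features changed, equally up and down. Since most hMeDIP peaks were called here, that simulation does not test the choice of scaling.

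The members, lists and tests were chosen with earlier results of these data known. Values by library are given for up to 6 members per branch and direction in RNA, for Srebf1, Srebf2, Insig1 and Scd2, and for the 4 peaks of smallest p per branch and direction with called promoter peaks up to 6 per branch. Genes and peaks chosen because they passed are likely to have their groups apart, so that separation adds no support to their calls. Other pathway genes were named up to 4 per list and direction. Some genes of these lists are not reported here and were left out of the lists' counts. Values of Acaca, Scd, Hmgcs1 and Stard4 outside this rule were chosen after they were seen.

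In the design, hMeDIP libraries were to be summed where their chi-square per degree of freedom was under a limit of 1.5 and another pair's was above it. No pair exceeded that limit, and the chi-square test itself decided. Replicates 1 and 3 gave 0.963 in controls and 0.896 with vitamin C and no difference in the chi-square test, and the other pairs 1.08 to 1.47. Input pairs, at 0.978 to 0.989, could not be told apart within either group and were not summed. Floors cover counting error only, while each SE comes from the edgeR fit and covers the spread among the fitted samples. No molecular identifiers are mentioned.

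Alternatives were DESeq2 1.42.0, RLE factors, library size alone, all counted reads, no filter, a stricter peak list (hMeDIP over input of at least 2), 3 against 3 hMeDIP libraries, the replicate block and leaving out each library.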

Additional observations from a re-analysis of the deposited data

How the results depend on the processing

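In RNA, 25 of 32 members kept their side of the threshold, and if called their direction, under every setting run. The 7 others are named in the report with the setting that changed them. Without each library in turn, the sterol branch had 5 to 9 genes higher and 3 lower, the fatty acid branch 1 higher and 4 to 7 lower, and all genes 1710 to 2718 higher and 1784 to 2916 lower. The lowest sterol count of 5 and the 1784 lower genes both came without control replicate 2. Without each hMeDIP sample or library, per gene counts were 10 to 11 higher and 2 to 3 lower for sterol genes, 10 to 11 and 4 for fatty acid genes, and 5153 to 5983 and 6057 to 6769 for all genes. Peaks gave 42 to 46 higher and 9 to 11 lower (sterol), 54 to 63 and 26 to 27 (fatty acid), and 69397 to 78183 and 73441 to 79590 (all). Input calls stayed at 0.

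Scaled by all counted reads, 1 sterol and 2 fatty acid genes were lower per gene in hMeDIP, with 11042 of all genes higher and 2971 lower. Cyp51 (0.37), Sc5d (0.39), Dhcr7 (0.35), Insig1 (0.19), Thrsp (0.20) and Me1 (0.25) changed sign per gene, which follows from the shift of all genes. By peak, 3 sterol peaks were lower, and 129858 of all peaks higher and 51017 lower. Over input, 6 sterol peaks were lower, 39 fatty acid peaks higher and 45398 of all peaks higher. DESeq2 called 36 fatty acid peaks and 43730 of all peaks higher, and the cause was not tested. Of 26 named peaks, 23 kept their call and direction throughout. Per gene, 23 of 34 members kept their side of the threshold and, if called, their direction. Every member peak was in the stricter peak list, and every peak with a gene was in a promoter or gene body class, so those settings changed no member.

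Replicate numbers are not said to pair samples. In RNA, same-numbered samples correlated at 0.244, 0.0891 and 0.0734, and control 2 correlated best with vitamin C replicate 3, at 0.163. In hMeDIP the correlations were -0.030, -0.205 and -0.112. With the replicate block, RNA had 2705 genes higher and 2839 lower, sterol 8 and 3, fatty acid 1 and 5. Blocked hMeDIP peaks gave 75012 higher and 76086 lower, with 45 and 11 sterol and 61 and 26 fatty acid peaks.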
